A study of Arabidopsis thaliana with 60 samples.

Results

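TIBA and NPA, both inhibitors of auxin transport, were compared directly with each other in Arabidopsis thaliana seedlings by setting the 2 TIBA arrays against the 2 NPA arrays, paired by replicate number and with no mock array in the difference. These 4 arrays were chosen by treatment, bracket and time from the 60 Affymetrix ATH1 arrays of the series, which hold 30 groups of 2 arrays. All groups were whole seedlings of the Col-0 wild type, 7 days old. The TIBA group had 3 h with 10 µM TIBA, the NPA group had 3 h with 10 µM NPA, and the mock group of the same bracket, F1, had 3 h of mock treatment. F1 also held 16 other treated groups. Whether both arrays of a group stem from independent cultures is not given in the labels. The p-values therefore rest on array-to-array spread that could be technical, and 2 arrays in a group limit the precision.

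Auxin is a growth hormone that plant cells pass from one to the next through carriers of the PIN and ABCB families. NPA (naphthylphthalamic acid) and TIBA (triiodobenzoic acid) are both used to block this polar transport, and cells that keep or lose auxin change the transcription of early auxin genes such as the GH3, Aux/IAA and LBD genes. A comparison of the inhibitors with each other asks which transcript changes they have in common and which belong to one of them.

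Values were MAS5 intensities, and differences are in log2 units of intensity + 133.4, so they understate changes of dim probe sets. A probe set was called where the limma p-value, adjusted over all 17301 tested probe sets, was below 0.05. Arrays of a group correlated across probe sets with r = 0.971 for TIBA and 0.965 for NPA, while TIBA and NPA arrays of one replicate number correlated with r = 0.928 and 0.934. The whole-seedling label was borne out by leaf and root genes: the light-harvesting genes LHCB4.1 and LHCB4.2 had intensities between 21204.5 and 33616.5 on the 4 arrays and PYK10, a root beta-glucosidase gene, between 22974.6 and 37610.2. Few of the listed cell type markers had a named probe set, 3 of 14 for leaf, 1 of 12 for root, 2 of 11 for root hair, and 0 of 9 for seed and 0 of 5 for pollen, so the absence of seed and pollen RNA was not tested. The shoot meristem gene CLV3 was too dim to be tested.

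Of the 17301 probe sets, 1045 were higher with TIBA than with NPA (6.04%) and 959 were lower (5.54%), together 2004 (11.6%), and 3885 had an unadjusted p below 0.05. The called differences reached beyond 1 log2 unit in either direction for 555 higher and 274 lower probe sets. The paired differences of pair 1 and pair 2, which share no array, had the same sign for 2003 of the 2004, against 62.8% of all tested probe sets. The TIBA and NPA arrays did not overlap for 1872 of the 2004, against 33.7% of all tested probe sets. The calls were made from these same differences, so both shares are largely fixed by the calling and are a description only. Across all probe sets the pair 1 and pair 2 differences correlated with r = 0.65, a description of 17301 points from 4 arrays. The counts depend on the pairing: with no replicate block, 553 were called higher and 239 lower. Leaving out TIBA replicate 1 left 652 higher and 545 lower, and leaving out NPA replicate 1 left 781 higher and 591 lower.

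**Figure D1:**
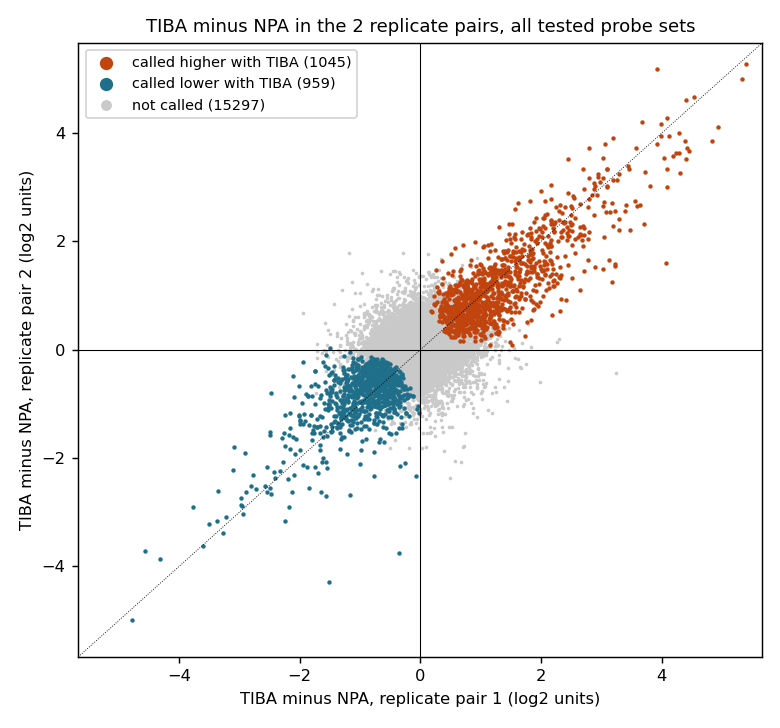
TIBA minus NPA in replicate pair 1 (horizontal) against replicate pair 2 (vertical), in log2 units, for each of the 17301 tested probe sets. Orange points are the 1045 called higher with TIBA, blue points the 959 called lower and grey points were not called. The called points lie along the dotted line of equal differences, and the higher ones reach farther from 0 than the lower ones.

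Set against the mock, the inhibitors differed widely in the number of calls. TIBA against mock gave 1122 higher (6.49%) and 1265 lower probe sets (7.31%), together 13.8%, and NPA against mock gave 8 higher (0.0462%) and 30 lower (0.173%), together 0.22%, with 1581 at an unadjusted p below 0.05. Both comparisons use the same mock arrays. Without mock replicate 1 the lower counts were 643 for TIBA and 7 for NPA, and NPA had 2 higher; without TIBA replicate 1, TIBA had 711 higher and 759 lower; without NPA replicate 1, NPA had 13 lower. The standard deviation of the differences over all tested probe sets was 0.529 for TIBA minus NPA, 0.561 for TIBA minus mock and 0.285 for NPA minus mock.

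Most probe sets that separated TIBA from NPA also separated TIBA from mock in the same direction and were not called with NPA against mock: 804 were higher and 669 lower, 8.51% of all tested. For these, the median NPA minus mock was 0.01 for the higher and -0.07 for the lower probe sets, with 10th and 90th percentiles of -0.29 and 0.36 for the higher and -0.38 and 0.17 for the lower. Probe sets called with NPA against mock are left out of this class by definition. That favours values of NPA near mock, so these figures are a description only. A further 229 higher and 286 lower probe sets (2.98%) were called in TIBA minus NPA and in neither comparison with mock. This class, by its definition, favours probe sets whose mock value lies between the inhibitors, so its medians against mock are a description only: the median TIBA minus mock was 0.40 and the median NPA minus mock -0.32 for the higher set, and -0.38 and 0.27 for the lower set. Probe sets called on the side of NPA alone numbered 8 (0.0462%), all lower with NPA, and 165 with the mean of the 16 other treated groups in place of mock. In that setting NPA itself had 237 higher and 299 lower probe sets, in place of 8 and 30. The mean of 16 groups is more precise than the mean of the mock arrays, which by itself allows more calls. It also takes in treatments with many calls of their own, such as cycloheximide (9425 called against mock) and silver nitrate (4765). These can shift the reference with no change by NPA. How much of the rise comes from either was not tested. TIBA against mock alone, with no called difference from NPA, held 311 higher and 576 lower probe sets (5.13%), and the like class for NPA held 3 (0.0173%). Without TIBA replicate 1, the 1473 probe sets on the side of TIBA alone became 919.

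GH3.3 was the gene of the auxin lists that rose with both inhibitors. It encodes an enzyme that joins auxin to amino acids and is a rapid auxin response gene. Its intensity was 19575.3 and 24933.9 with TIBA, 6547.7 and 5608.5 with NPA, and 926.3 and 451.1 in mock. The 3 groups did not overlap, with TIBA highest, NPA between and mock lowest. TIBA minus NPA was 1.84 ± 0.34 (SE, n = 2 each, adjusted p = 0.000107), TIBA minus mock was 4.82 (adjusted p = 8.65e-14) and NPA minus mock was 2.98 (adjusted p = 2.02e-06). Among the 19 groups of F1, TIBA ranked at position 2 and 1 from the top on the 2 replicate numbers and NPA at 3 and 4. GH3.3 passed in both comparisons with mock without mock replicate 1, without mock replicate 2, with no replicate block and with the mean of the 16 other treated groups in place of mock.

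GH3.17, another auxin-conjugating enzyme of the same family, was lower with TIBA than with NPA and mock. It had 364.4 and 406.1 with TIBA, 1759.7 and 1088.6 with NPA, and 2627.6 and 1309.1 in mock. Both TIBA arrays lay below all NPA and mock arrays and were the lowest of the 19 groups on both replicate numbers. The NPA and mock arrays overlapped, with NPA below mock on each replicate number. The difference between TIBA and NPA was -1.55 ± 0.19 (SE, n = 2 each, adjusted p = 8.88e-08) and NPA minus mock was -0.39 (adjusted p = 0.546).

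The sugar conjugation of auxin was represented by UGT74D1 and IAGLU, glucosyltransferase genes whose enzymes attach glucose to auxin. UGT74D1 had 8877.5 and 7382.7 with TIBA, 4663.6 and 3541.8 with NPA, and 3848.6 and 3942.7 in mock. Its TIBA arrays were the highest of F1, and TIBA minus NPA was 0.97 ± 0.16 (SE, adjusted p = 2.2e-05). IAGLU, which was named after its values had been seen, had 12976.0 and 12892.8 with TIBA, 3009.4 and 1819.6 with NPA, and 2427.5 and 1406.4 in mock. TIBA was again highest of the 19 groups on both replicate numbers, with TIBA minus NPA at 2.40 ± 0.18 (SE, adjusted p = 7e-13) and NPA minus mock at 0.32 (adjusted p = 0.61).

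The other measured genes of the auxin response list did not pass between the inhibitors. Of 14 measured auxin response genes, 1 was higher (GH3.3), 1 was lower (GH3.17) and 12 were not called. Of the 14, 5 had an unadjusted p below 0.05. The median TIBA minus NPA was 0.17 against -0.02 over the 9490 genes named by a probe set, of which 5.38% were higher and 4.92% lower. The list covers only part of the auxin response: 984 of the 2004 called probe sets are not listed with a gene, and auxin genes among them were not looked at. LBD29, a transcription factor gene of lateral root initiation, had 324.5 and 194.3 with TIBA, 42.7 and 61.1 with NPA, and 211.7 and 236.8 in mock. Its TIBA and mock arrays overlapped and both NPA arrays were lower, but TIBA minus NPA, 1.07 with a 95% interval of 0.24 to 1.89, did not pass (adjusted p = 0.0897), nor did NPA minus mock at -0.95 (adjusted p = 0.477). IAA30, an Aux/IAA repressor gene, had a TIBA minus NPA of 0.71 (adjusted p = 0.0806).

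LBD16, which acts with LBD29 in lateral root initiation, and WES1, a GH3 enzyme gene, were called with TIBA against mock only. LBD16 had 641.6 and 526.9 with TIBA, 318.3 and 474.6 with NPA, and 258.6 and 316.1 in mock, and WES1 had 2104.9 and 2299.7 with TIBA, 1582.1 and 1823.5 with NPA, and 1632.6 and 1399.1 in mock. In these genes the NPA arrays lay below the TIBA arrays, with TIBA minus NPA at 0.45 (95% interval -0.09 to 0.98) for LBD16 and 0.35 (0.02 to 0.67) for WES1, neither of which passed.

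WAG2 was the measured gene of the auxin transport list. Its product is a protein kinase that acts on the PIN carriers. WAG2 had 565.6 and 717.7 with TIBA, 386.0 and 276.7 with NPA, and 762.2 and 388.5 in mock, so that both NPA arrays lay below all TIBA and mock arrays, which overlapped. TIBA minus NPA was 0.74 (adjusted p = 0.0476), close to the threshold, and the call was lost without TIBA replicate 2 (0.31), without either NPA array (0.64 and 0.84) and with no replicate block (0.74). The biosynthesis genes YUC2 and YUC6, flavin monooxygenases of auxin synthesis, had TIBA minus NPA of 0.00 and -0.05.

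**Figure D2:**
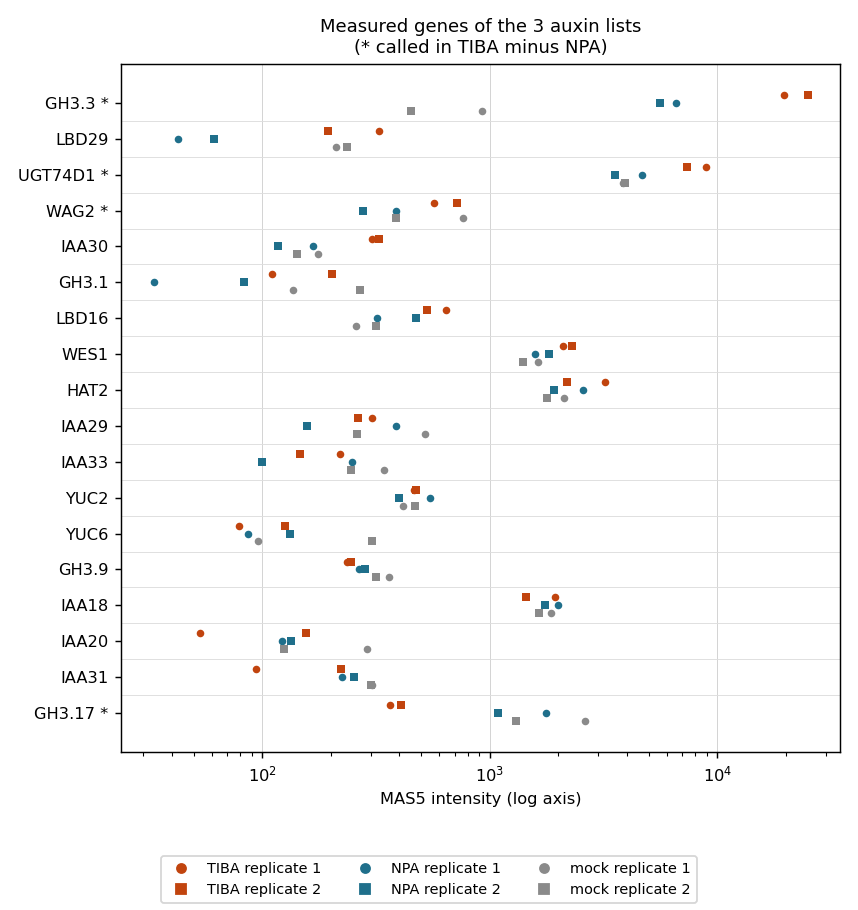
MAS5 intensity (log axis) of each measured gene of the 3 auxin lists, ordered by TIBA minus NPA, with circles for replicate 1 and squares for replicate 2. Orange is TIBA, blue NPA and grey mock, and an asterisk marks genes called in TIBA minus NPA. GH3.3 is the gene whose TIBA, NPA and mock arrays form 3 separate levels, and GH3.17 has its TIBA arrays below the rest.

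Beyond GH3.3, few probe sets were called with both inhibitors against mock. With GH3.3 there were 25 such probe sets (5 higher, 20 lower), out of 38 called with NPA against mock and 2387 with TIBA against mock. A difference between the inhibitors was called for 6 of the 25 (0.0347% of all tested) and not for 19 (0.11%). Of the 25, 10 name 1 gene, and these 25 rest on the mock arrays that both comparisons share. Mock replicate 1 had the highest 3′ to 5′ signal ratio of the 38 F1 arrays for 2 of the 3 pairs of control probe sets looked at, 1.89 for a pair of actin probe sets (F1 median 1.49) and 0.92 for GAPDH (F1 median 0.55), against 1.27 to 1.53 for actin on the TIBA and NPA arrays. For the other actin pair it was 8.57, with 1 F1 array above it. The ratio is read as a sign of RNA quality, and its part in these calls was not tested. Without mock replicate 1, 3 of the 25 were still called with both, without mock replicate 2, 13 were, with no replicate block, 2 were, and with the 16 other treated groups in place of mock, 6 were. For 16 of the 25 the 95% interval of TIBA minus NPA included 0, and for 18 it lay within 1 log2 unit of 0 on either side.

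AT1G29660 was the other named gene among the 25 that passed with both inhibitors in each of these 4 settings. Its intensity was 1116.3 and 912.6 with TIBA, 1572.1 and 1203.3 with NPA, and 5811.9 and 3362.5 in mock. The TIBA and NPA arrays were all well below both mock arrays, and TIBA was the lowest of F1 on both replicate numbers. TIBA minus mock was -2.0 (adjusted p = 1.8e-10), NPA minus mock was -1.59 (adjusted p = 3.51e-06) and TIBA minus NPA was -0.40 (95% interval -0.79 to -0.02, adjusted p = 0.199). It was also called lower with 8 of the 16 other treatments against the same mock.

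EXPA8, an expansin gene of cell wall loosening, had 540.0 and 489.1 with TIBA, 586.2 and 436.6 with NPA, and 2739.5 and 1084.3 in mock. TIBA and NPA overlapped at a level below both mock arrays, and TIBA minus NPA was 0.02 with a 95% interval of -0.59 to 0.62. Both calls against mock (-1.53 for TIBA and -1.55 for NPA) stood without mock replicate 2 and not without mock replicate 1, and neither passed against the 16 other groups (-0.61 and -0.62). AT1G32460 had 5587.1 and 5062.5 with TIBA, 4799.4 and 4751.3 with NPA, and 9374.0 and 6910.4 in mock, and it was called lower with both inhibitors against the 16 other groups as well (-0.38 and -0.53), but not with both without mock replicate 1 or with no replicate block. AT2G33490 shows the dependence on mock from the other side: it was called higher with both inhibitors, and also with 14 of the 16 other treatments, and its mock arrays were the lowest of F1 on both replicate numbers.

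MMP, a matrix metalloproteinase gene, was the named gene of 2 probe sets (0.0116%) called in opposite directions against mock. It had 1915.6 and 1456.2 with TIBA, 343.6 and 283.4 with NPA, and 757.1 and 676.5 in mock. The 3 groups did not overlap, and NPA was the lowest and TIBA next to the highest of the 19 groups on both replicate numbers. TIBA minus NPA was 2.02 ± 0.19 (SE, adjusted p = 1.59e-10), TIBA minus mock 1.09 and NPA minus mock -0.93 (adjusted p = 0.0172).

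AT5G04120 was the named gene called on the NPA side alone. Its intensity was 395.4 and 250.1 with TIBA, 96.3 and 20.1 with NPA, and 1002.9 and 373.0 in mock, and its NPA arrays were the lowest of F1 on both replicate numbers. The TIBA arrays exceeded them by 1.26 (adjusted p = 0.0029). NPA minus mock was -2.01 (adjusted p = 0.000189) and TIBA minus mock -0.75 (adjusted p = 0.0961). The gene is not particular to NPA among the treatments. It was also called lower against mock with PCIB (-1.44), silver nitrate (-1.36), salicylic acid (-1.07) and cycloheximide (-0.74). It was called higher with AVG (2.13) and not called with 246T, Ibup or MG132. Some cell wall genes differed between the inhibitors with NPA on the far side of mock. EXPB3, a beta-expansin gene, had 771.5 and 729.0 with TIBA, 2741.5 and 1474.0 with NPA, and 1114.5 and 935.9 in mock, with NPA above all TIBA and mock arrays. TIBA minus NPA was -1.28 (adjusted p = 0.000124), while NPA minus mock, 0.90, did not pass (adjusted p = 0.117). XTH18, which encodes a xyloglucan endotransglucosylase of wall remodelling, ran the other way, with 2084.5 and 1961.9 with TIBA, 663.9 and 697.0 with NPA, and 1209.0 and 1343.3 in mock. TIBA was highest, NPA lowest and mock between without overlap, and TIBA minus NPA was 1.41 (adjusted p = 0.00172), a call that was lost without TIBA replicate 2 (1.17) and without NPA replicate 1 (1.1).

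Of the 12 named genes with the highest TIBA minus NPA, GSTU25, UGT73B4 and UGT73B5 encode conjugating enzymes. GSTU25, a tau-class glutathione transferase gene whose family adds glutathione to reactive and foreign compounds, had 20749.0 and 13518.7 with TIBA, 853.6 and 423.5 with NPA, and 639.6 and 387.8 in mock. The NPA and mock arrays overlapped far below the TIBA arrays, and TIBA minus NPA was 4.51 ± 0.42 (SE, n = 2 each, adjusted p = 1.61e-10). UGT73B4 and UGT73B5 belong to the UDP-glycosyltransferases, which attach sugars to small molecules. UGT73B4 had 3949.6 and 1978.3 with TIBA, 10.2 and 11.9 with NPA, and 10.2 and 77.0 in mock. The NPA and mock values of UGT73B4 lie below the pseudocount, so its difference of 4.35 understates the ratio of the intensities. UGT73B5 had 5019.8 and 3442.9 with TIBA, 192.2 and 97.5 with NPA, and 203.1 and 150.2 in mock, with TIBA minus NPA at 3.97 ± 0.30 (SE, adjusted p = 7e-13), and both genes were highest with TIBA among the 19 groups on both replicate numbers.

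Among the 12 genes with the highest TIBA minus NPA, several are known here by locus alone, and their families are not given for that reason. AT4G37290 had 4812.3 and 3022.2 with TIBA, 119.8 and 62.2 with NPA, and 130.6 and 74.2 in mock, a difference of 4.15. AT2G41730 had 13043.4 and 14289.8 with TIBA, 481.0 and 952.4 with NPA, and 429.2 and 588.1 in mock, a difference of 4.08. AT1G19020 had 12804.6 and 15083.0 with TIBA, 577.9 and 1142.0 with NPA, and 1243.6 and 557.9 in mock, a difference of 3.88. In each of these 3 genes NPA and mock overlapped, and TIBA was at position 2 or 3 of the 19 groups, with CHX the highest of the 16 others by its mean. The remaining genes of the 12, AT1G59660, AT1G05575, AT5G43450 and AT5G64250 together with a pair of small heat shock protein genes described below, had differences from 3.27 to 3.97.

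**Figure D3:**
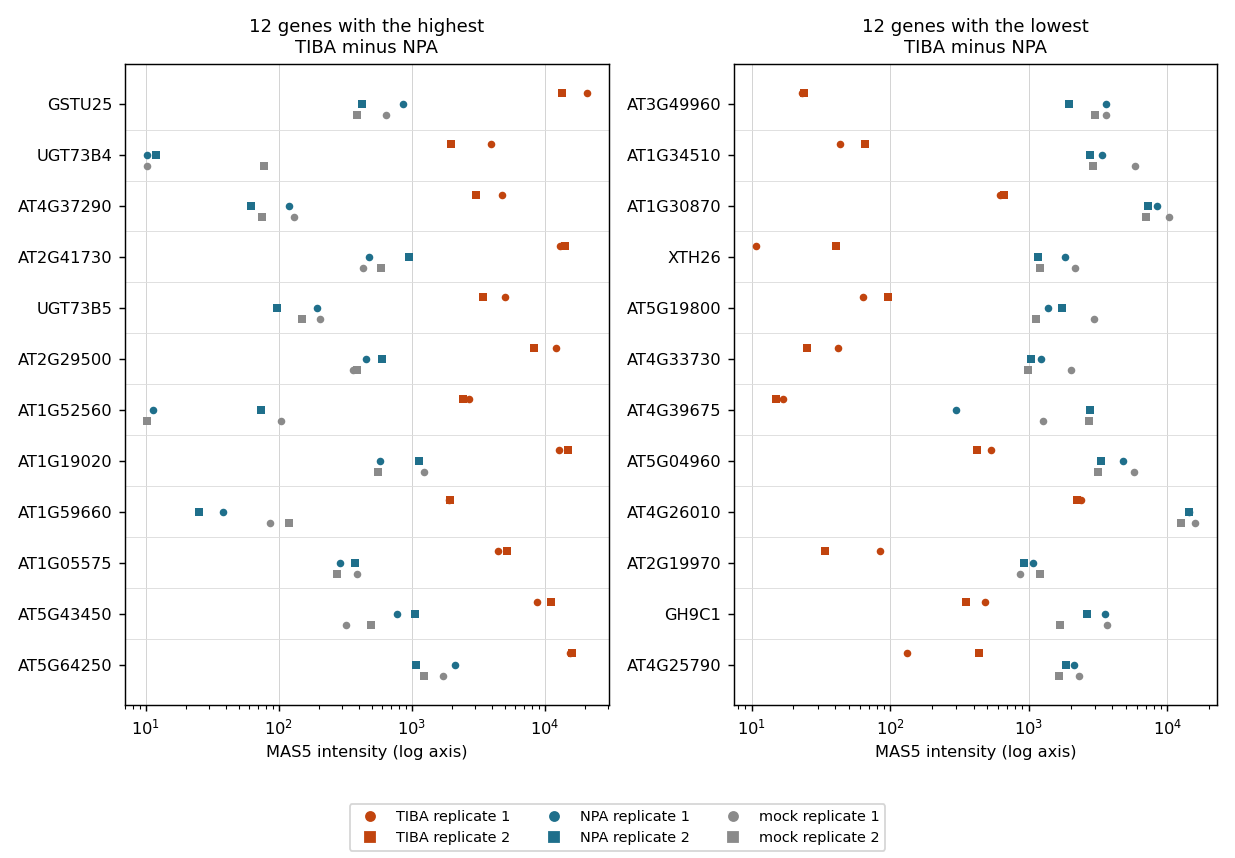
MAS5 intensity (log axis) of the 12 named genes with the highest (left) and the 12 with the lowest (right) TIBA minus NPA. Orange marks TIBA, blue NPA and grey mock, with circles for replicate 1 and squares for replicate 2. In every gene shown both TIBA arrays lie apart from all NPA and mock arrays, and the NPA and mock arrays lie near each other in most.

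The conjugating families did not move as a whole. Of 10 measured glutathione transferase genes, 3 were higher (GSTU25, GSTU22 and GSTU16), 1 was lower (GSTU26) and the median difference was -0.08, beside 5.38% higher, 4.92% lower and a median of -0.02 over all named genes. GSTU22 had 6955.2 and 5870.5 with TIBA, 694.5 and 613.2 with NPA, and 464.1 and 591.3 in mock, with TIBA minus NPA at 3.05 ± 0.28 (SE, adjusted p = 8.23e-11). GSTU16 had 2855.3 and 2002.4 with TIBA, 1001.3 and 941.5 with NPA, and 876.7 and 792.4 in mock, a difference of 1.19. GSTU20, the brightest of the 10, had 19590.5 and 16735.8 with TIBA and 17240.8 and 17478.3 with NPA, a difference of 0.06. GSTU26 differed by -0.77 (adjusted p = 0.0407), a call that was lost without TIBA replicate 1 (-0.55) and without either NPA array (-0.62 and -0.92).

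Of 40 UDP-glycosyltransferase genes, 10 were higher, 7 were lower and the median was 0.03, beside the same 5.38% and 4.92% over all named genes. Besides UGT73B4 and UGT73B5, the higher genes were UGT87A2 at 2.36, UGT73C1 at 2.34, UGT73B1 at 1.93, UGT84A3 at 1.91, GT72B1 at 1.48, UGT76B1 at 1.36, UGT76E11 at 1.09 and UGT74D1. UGT73C1 had 610.3 and 650.7 with TIBA, 18.1 and 16.3 with NPA, and 20.5 and 142.1 in mock. GT72B1, whose enzyme is known to glucosylate chlorinated phenols and anilines, had 6869.1 and 5884.0 with TIBA, 3260.1 and 1455.2 with NPA, and 3454.7 and 1471.4 in mock. Its TIBA arrays lay above all NPA and mock arrays, which overlapped. The lowest member was UGT72E2, which glucosylates lignin precursors, with 594.5 and 545.8 with TIBA, 3979.1 and 1879.2 with NPA, and 2422.3 and 1933.3 in mock, a difference of -2.03 (adjusted p = 1.16e-10). UGT78D2, a flavonoid glucosyltransferase, differed by -0.69 and was called in neither comparison with mock.

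The small heat shock protein genes, which encode chaperones that hold unfolded proteins, were mostly higher with TIBA. This list was completed by locus after the values had been seen, from general knowledge of the family, as were the lists of class III peroxidases and of berberine bridge enzyme-like genes. The other lists, above and below, were also chosen with earlier results of these data known. The called shares of all lists can reflect that choice and are a description only. Of 10 measured small heat shock protein genes, 8 were higher, 0 were lower and the median difference was 1.61, beside 5.38% higher, 4.92% lower and a median of -0.02 over all named genes. Of the 4 measured genes on the separate list of other heat shock proteins, 1 was higher (AT5G48570, listed with the synonym ROF2, at 0.81) and 3 were not called, with a median of -0.26. AT2G29500 had 12252.2 and 8285.9 with TIBA, 453.0 and 594.0 with NPA, and 358.5 and 388.5 in mock, with TIBA minus NPA at 3.97 ± 0.39 (SE, adjusted p = 4.96e-10). In the 16 other treated groups it lay between 223.5 and 1041.9, below both TIBA arrays. AT1G52560 had 2700.2 and 2432.3 with TIBA, 11.3 and 73.6 with NPA, and 103.6 and 10.2 in mock, and in the 16 other groups it lay between 5.2 and 241.1. AT5G51440 (3.04), AT1G53540 (2.89) and ATHSP22.0 (2.08) followed, and AT4G21870 (-0.04) and AT5G54660 (0.17) were not called. ATHSP22.0 lost its call without NPA replicate 1 (1.62).

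BZIP60, a transcription factor gene of the unfolded protein response of the endoplasmic reticulum that was named after its values had been seen, had 9265.6 and 10818.7 with TIBA, 1866.0 and 2008.2 with NPA, and 2101.1 and 1818.0 in mock. NPA and mock overlapped, and TIBA minus NPA was 2.29 ± 0.19 (SE, adjusted p = 9.62e-12). BZIP60 was also called higher against mock with cycloheximide (3.69), silver nitrate (1.75), salicylic acid (1.01) and 246T (0.76), against 2.28 with TIBA. With PCIB, Ibup, AVG and MG132 it was not called. AT1G18830, listed with the synonym SEC31A, a coat protein of vesicles that leave the endoplasmic reticulum, was the vesicle traffic gene with the largest difference. It had 1141.1 and 835.8 with TIBA, 119.7 and 239.4 with NPA, and 121.1 and 261.6 in mock, a difference of 1.86 (adjusted p = 2.28e-05). Of the 33 vesicle traffic genes measured, 2 were higher (AT1G18830 and VPS20.1), 1 was lower (the exocyst subunit SEC6) and 30 were not called, with a median of -0.04. This is near the background of 5.38% higher and 4.92% lower over all named genes.

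Of 37 genes of mitochondrial and oxidative stress, 10 were higher, 1 was lower (MSRB6) and the median was 0.07, beside 5.38% higher and 4.92% lower over all named genes. NDB2, which encodes an NADH dehydrogenase on the outer face of the inner mitochondrial membrane, had 8816.4 and 8394.2 with TIBA, 1513.8 and 1018.5 with NPA, and 1034.0 and 1814.4 in mock. Its TIBA arrays were the highest of F1, and TIBA minus NPA was 2.66 ± 0.33 (SE, adjusted p = 1.02e-07). AER, an alkenal reductase that detoxifies reactive aldehydes, had 8840.0 and 7093.2 with TIBA, 2023.4 and 2651.2 with NPA, and 1671.8 and 1927.7 in mock, a difference of 1.72. ALDH7B4, an aldehyde dehydrogenase, differed by 1.15 and MSRB3, a methionine sulfoxide reductase, by 0.71. The locus numbers AT2G04050 (2.39), AT1G05060 (2.21) and AT2G21640 (1.94) were on the same list, as were GSTU25, AT2G41730 and AT5G43450.

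Defence and early stress genes were higher in part. Of 15 genes of the salicylate and defence list, 5 were higher and 2 lower, with a median of 0.34, beside 5.38% higher and 4.92% lower over all named genes. WRKY6, a transcription factor gene of senescence and defence, had 3905.8 and 2439.6 with TIBA, 456.7 and 487.6 with NPA, and 524.3 and 389.2 in mock, a difference of 2.41 (adjusted p = 6.96e-09). GRX480, a glutaredoxin of salicylate signalling, differed by 2.08, the chitinase gene ChiC by 1.37 and WRKY53 by 0.91, while PR-1-LIKE had 31.4 and 31.0 with TIBA, 441.0 and 386.9 with NPA, and 467.2 and 403.6 in mock, a difference of -1.73 (adjusted p = 0.000452). Of 18 calcium and early stress genes, 4 were higher, 0 were lower and the median was 0.19, beside the same background. They were STZ, a zinc finger repressor (2.61), the U-box ubiquitin ligase genes PUB23 (2.1) and PUB24 (1.34), and CML42, a calmodulin-like protein (1.21). STZ had 2806.2 and 3839.3 with TIBA, 522.7 and 345.0 with NPA, and 546.2 and 442.7 in mock.

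Of 14 berberine bridge enzyme-like genes, which encode flavin oxidases of the cell wall, 5 were higher and 1 was lower, beside 5.38% and 4.92% over all named genes. AT1G26380 differed by 2.89, AT4G20830 by 2.48 and AT1G30700 by 2.26. AT4G20830 had 10687.0 and 5990.9 with TIBA, 1435.1 and 1231.2 with NPA, and 1519.7 and 1249.0 in mock, with NPA and mock nearly level.

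Both measured root hair markers were lower: EXPA18 had 378.5 and 404.9 with TIBA, 2858.1 and 2276.8 with NPA, and 3323.7 and 1989.6 in mock, and EXPA7 had 314.9 and 530.7 with TIBA, 1552.3 and 1529.2 with NPA, and 2219.2 and 1343.7 in mock. These expansins loosen the wall of growing root hairs. TIBA minus NPA was -2.35 ± 0.29 (SE, adjusted p = 6.3e-08) for EXPA18 and -1.62 ± 0.26 (SE, adjusted p = 1.46e-05) for EXPA7, and NPA minus mock was -0.01 and -0.16. In whole seedlings, fewer cells of a type and less RNA per cell cannot be told apart. The root gene PYK10 had a TIBA minus NPA of 0.32 (adjusted p = 0.409).

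XTH26, a xyloglucan endotransglucosylase gene active in root hairs, had 10.7 and 40.8 with TIBA, 1834.7 and 1167.7 with NPA, and 2138.7 and 1199.8 in mock. NPA and mock overlapped, and TIBA minus NPA was -3.34 ± 0.26 (SE, adjusted p = 1.1e-12). GH9C1, which encodes a glycosyl hydrolase of the endoglucanase family, had 482.2 and 351.6 with TIBA, 3525.5 and 2643.7 with NPA, and 3665.1 and 1692.5 in mock, a difference of -2.54. AT5G19800, listed with the synonym HRGP2 for a hydroxyproline-rich glycoprotein, had 64.0 and 95.9 with TIBA, 1384.6 and 1733.8 with NPA, and 2944.0 and 1118.5 in mock, a difference of -2.98, and HRGP1, of the same kind, differed by -1.17, or by -0.73 without NPA replicate 2, where it was not called. Of the 23 measured expansin and xyloglucan endotransglucosylase genes, 9 were lower, 1 was higher (XTH18) and the median was -0.36, beside 4.92% lower and 5.38% higher over all named genes. For 4 of the 9, EXPB3, XTH19, XTH32 and EXPA9, TIBA minus mock did not pass (-0.39, -0.44, -0.27 and -0.46). XTH32 had 3385.7 and 4324.1 with TIBA, 7542.5 and 7409.9 with NPA, and 4556.9 and 4750.3 in mock, so that NPA was highest.

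Class III peroxidases are secreted enzymes that cross-link or loosen the wall with hydrogen peroxide, and many are expressed in roots. Of 45 measured members, 12 were lower, 4 were higher and the median was -0.20, beside 4.92% lower and 5.38% higher over all named genes. AT3G49960 was the lowest of the named genes in TIBA minus NPA, at -4.14 ± 0.36 (SE, n = 2 each, adjusted p = 2.93e-11). It had 23.2 and 23.9 with TIBA, 3582.6 and 1938.8 with NPA, and 3614.3 and 2979.7 in mock. AT1G34510 had 43.5 and 65.9 with TIBA, 3379.6 and 2763.8 with NPA, and 5803.7 and 2911.1 in mock, a difference of -4.09. AT1G30870 had 624.2 and 662.2 with TIBA, 8408.8 and 7302.1 with NPA, and 10316.2 and 7008.2 in mock, a difference of -3.36. In these 3 genes, and in AT4G26010 (-2.58), the NPA and mock arrays overlapped. Silver nitrate also lowered all of them against mock. In the order named, its differences were -4.55, -4.01, -3.87 and -3.83, against -4.44, -4.5, -3.48 and -2.56 with TIBA. The remaining 8 lower members differed by -1.80 to -0.76.

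AT1G68850 was the peroxidase that rose most, with 6241.3 and 3080.3 with TIBA, 708.6 and 307.8 with NPA, and 481.2 and 422.0 in mock, a difference of 2.89 ± 0.34 (SE, adjusted p = 3.06e-08). The family therefore held both called directions, and 29 of its 45 members were not called. The other higher members, AT4G33420, AT4G36430 and AT5G66390, differed by 0.90, 0.81 and 0.75, and the last pair lost the call in several settings, such as without TIBA replicate 1 (0.34 and 0.47).

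Of the other genes in the lowest 12, AT4G39675 had unequal NPA arrays, with 16.7 and 14.9 with TIBA, 295.9 and 2747.7 with NPA, and 1275.9 and 2733.3 in mock. Its difference was -1.52 in pair 1 and -4.28 in pair 2, and -2.90 in the fit (95% interval -3.85 to -1.95). AT4G33730 (-2.93), AT5G04960 (-2.76), AT2G19970 (-2.57) and AT4G25790 (-2.45) were the others, each with TIBA arrays apart from NPA and mock.

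**Figure D4:**
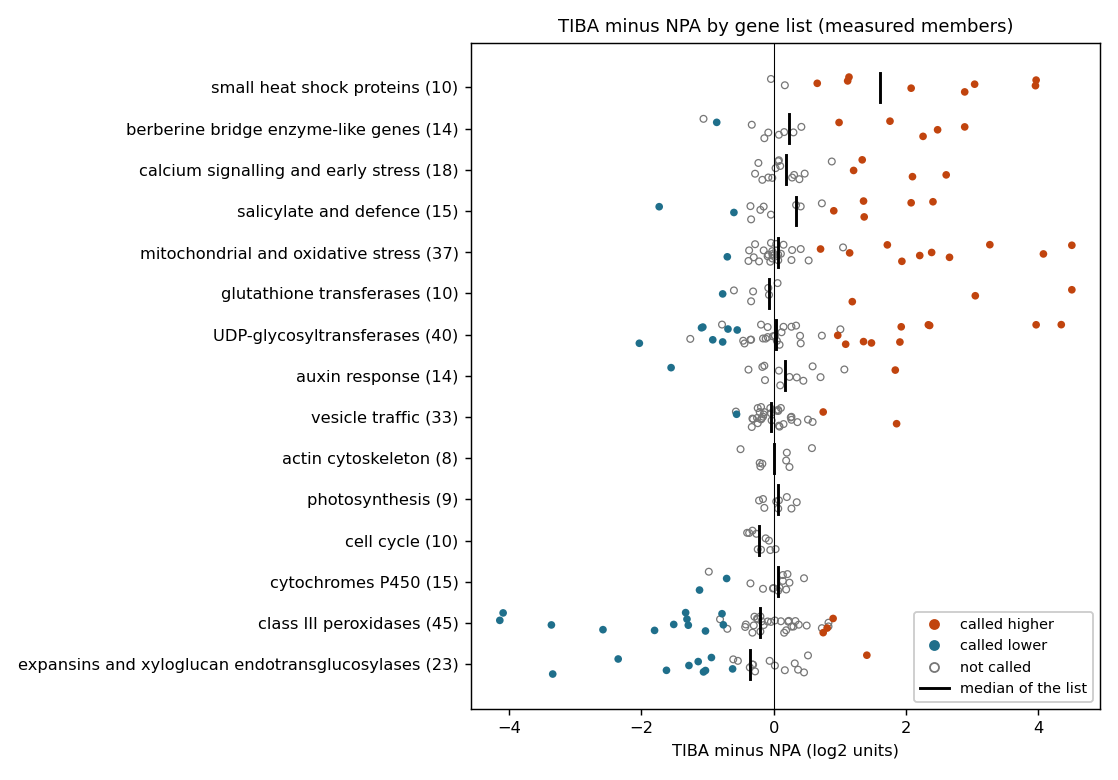
TIBA minus NPA (log2 units) of each measured gene, by gene list, with the number of measured genes after the name of the list. Filled points were called higher (orange) or lower (blue), open points were not called, and the black bar is the median of the list. Small heat shock proteins lie mostly right of 0, with a median of 1.61, expansins and peroxidases reach far to the left, and no actin, photosynthesis or cell cycle gene was called.

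In the remaining lists the called shares are read against 5.38% higher and 4.92% lower over all named genes, and counts this small are not read as a result about a list. TIBA and NPA have both been linked to actin, whose filaments carry vesicles through the cell. Of the 8 measured actin cytoskeleton genes limma called 0, with 2 at an unadjusted p below 0.05. Their differences ran from -0.50 to 0.58, with a median of 0.01. ACT11, an actin gene, was the lowest, with 826.7 and 523.8 with TIBA, 988.9 and 991.7 with NPA, and 1636.1 and 947.1 in mock. Its TIBA minus NPA of -0.50 did not pass (95% interval -0.87 to -0.13, adjusted p = 0.0741), and XIE, a myosin gene, had 0.58 (adjusted p = 0.213). Of 9 photosynthesis, 10 cell cycle and 7 iron and metal genes, 0 were called by limma, with 0, 3 and 1 at an unadjusted p below 0.05 and medians of 0.07, -0.21 and 0.21. Of 15 cytochrome P450 genes, 0 were higher and 2 lower, CYP71B37 by -1.12 and CYP71B28 by -0.71. In the ethylene list, 2 of 3 genes were higher, ARL, a gene of organ growth (1.23), and RTE1, a regulator of an ethylene receptor (0.64), and in the jasmonate list 1 of 4 was, OPCL1, a ligase of jasmonate synthesis (0.84).

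The probe sets that separated TIBA from NPA were then looked up in the 16 other treatments of F1 against mock, which share no array with TIBA minus NPA but share the mock arrays with each other. All were given for 3 h at 10 µM, except PNO8 at 1 µM. These comparisons come from the same fit as TIBA minus NPA and use the same variance estimate for each probe set. A probe set with a small estimate is therefore more easily called in all of them. How much of the overlap below comes from this was not tested. Of the 1045 probe sets higher in TIBA than NPA, 681 were also higher with AgNO3, silver nitrate (65.2%, against 11.7% of all tested probe sets), 595 with CHX, cycloheximide, an inhibitor of protein synthesis (56.9% against 18.9%), and 351 with Sal, salicylic acid (33.6% against 5.54%). As shares of the probe sets called higher with each compound, these were 33.7% for AgNO3, 18.2% for CHX and 36.6% for Sal. PNO8 had 171 (16.4% against 1.40%), 246T 130 (12.4% against 1.01%) and Ibup 91 (8.71% against 1.13%).

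The share of a compound's own higher calls that lay among the 1045 varied widely. The group labelled 246T had 175 higher probe sets, of which 74.3% were among those higher in TIBA than NPA. PNO8 had 242, of which 70.7% were, and PCIB, an auxin antagonist, had 33, of which 66.7% were, which is 2.11% of the 1045 against 0.191% of all. AVG, an inhibitor of ethylene synthesis, had 33, of which 15.2% were, or 0.478% of the 1045 against 0.191% of all, and 16 of the 1045 were called lower with AVG. The growth inhibitors and other compounds with few calls shared 5 or fewer higher probe sets: PX 5 (0.121% of all tested called higher), Brz91 3 (0.145%), PPI 3 (0.121%), Brz220 1 (0.0462%), Pac 0 (0.0289%) and Unic 0 (0.052%).

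Of the 959 probe sets lower in TIBA than NPA, 649 were lower with CHX (67.7% against 35.6%), 579 with AgNO3 (60.4% against 15.9%), 266 with Sal (27.7% against 4.81%), 102 with 246T (10.6% against 0.977%), 87 with MG132, a proteasome inhibitor (9.07% against 1.1%), 81 with Ibup (8.45% against 1.14%) and 51 with PNO8 (5.32% against 0.792%). At most 3 were lower with PX (0.173% of all), Brz91 (0.0809%), Brz220 (0.052%), PPI (0.0694%), AVG (0.37%), PCIB (0.0462%), Unic (0.0462%) and Pac (0.0173%). Calls in the opposite direction reached 163 of the 1045 and 80 of the 959 with CHX, 29 and 43 with AgNO3, and 16 and 11 with AVG, where they outnumbered the calls in the same direction (5 and 2).

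Single genes show how these treatments compare. GSTU25 was higher against mock with 246T (3.28), Sal (3.52), AgNO3 (3.13), Ibup (2.69), MG132 (2.92) and CHX (1.56), against 4.73 with TIBA and 0.22 with NPA. XTH26 was lower with 246T (-1.37), Sal (-1.93), Ibup (-1.79), CHX (-1.17) and AgNO3 (-3.47), against -3.46 with TIBA and -0.12 with NPA. GH3.3 was higher with 246T (2.24), PCIB (1.54), Sal (2.34), AgNO3 (1.86) and CHX (4.93) and lower with AVG (-2.38), against 4.82 with TIBA and 2.98 with NPA. AT2G29500 was called with none of 246T, PCIB, Sal, Ibup, CHX, AgNO3, AVG and MG132, with values from -0.42 to 0.87, against 4.33 with TIBA. These values share the mock arrays and are given side by side.

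**Figure D5:**
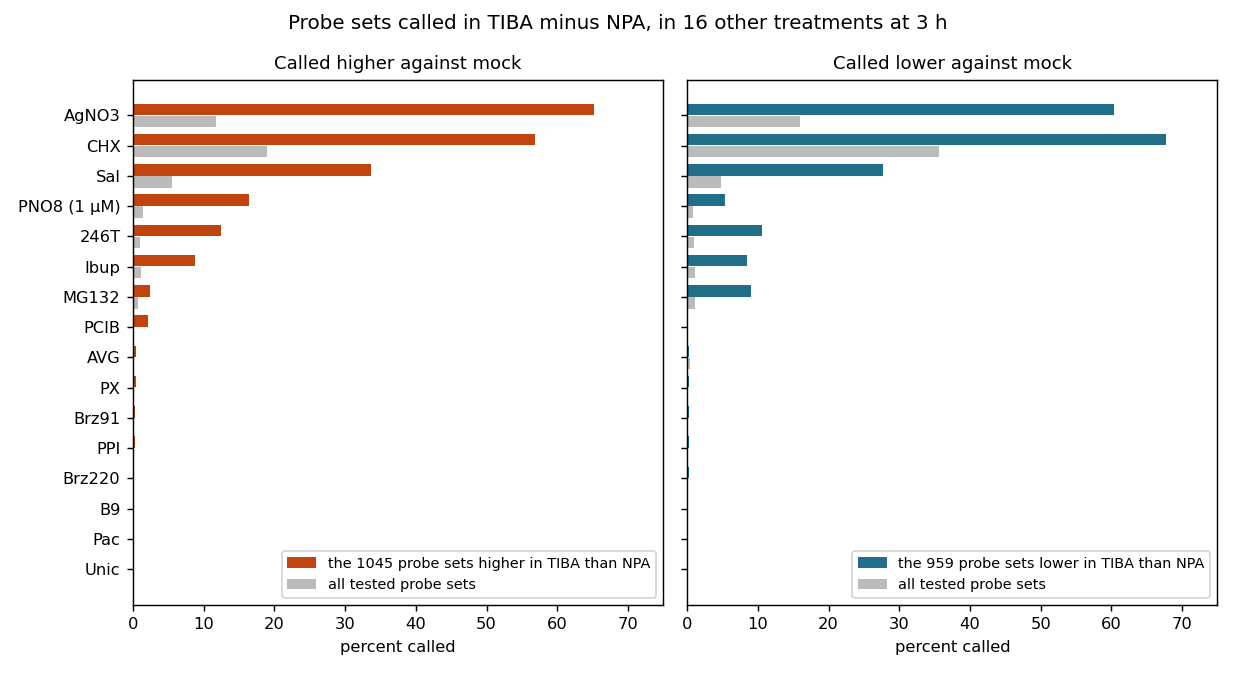
Percent of probe sets called against mock with each of 16 other treatments of F1 at 3 h, for the probe sets higher (left, orange) or lower (right, blue) in TIBA than NPA, beside all tested probe sets (grey). AgNO3 and CHX have the longest orange bars, 65.2% and 56.9%, and PPI, PX, Unic, Pac, B9, Brz220, Brz91 and AVG have no bar above 1%.

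Without leaning on mock, the place of TIBA among the 19 groups of F1 was read on each replicate number. TIBA was the highest of the 19 on both replicate numbers for 226 of the 1045 probe sets higher than NPA and the lowest on both for 102 of the 959 lower ones, out of 327 and 148 over all 17301 tested. The median of the mean position from the top was 2.5 for TIBA and 13.5 for NPA in the higher set, and 17.5 for TIBA and 6.5 for NPA in the lower set, against 10.0 and 9.5 over all tested probe sets. These ranks include the values that made the calls and are a description.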

How the data were processed

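ATH1 arrays of 7-day seedlings were read from 1 table of 22810 probe sets. The deposited values are MAS5 intensities, per the submitters' processing notes, with no further step given in the sources used here; their 2% trimmed mean is the same within each bracket and replicate number (1523.5 and 1219.7 in F1). After 64 control probe sets were left out, 17301 of 22746 probe sets, above the 40th percentile of the array on at least 2 arrays, were tested. limma 3.58.1 in R 4.3.3 was fitted to log2(intensity + 133.4), where 133.4 is the 20th percentile of an array, as its median across arrays, using all 60 arrays, with 1 mean per group, bracket by replicate number as a block, and a variance trend. P-values are two-sided with Benjamini-Hochberg adjustment over all tested probe sets.

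The pairing comes from the replicate numbers of the labels and the deposited scaling. The deviations of same-numbered TIBA and NPA arrays correlated with r = 0.243 (F1 range -0.094 to 0.31). Data were simulated for TIBA minus NPA over 17301 probe sets, with independent normal noise of the fitted spread. Of 100 changes of size 1, 73% were recovered, and of 100 of size 2, 98%, with 8 false calls of 179. Real arrays can depart from such noise, so this does not give the error rate of the 2004 calls. Genes were named through the platform annotation and RefSeq's table for 13513 probe sets that name 1 gene, of which 13436 matched, while 503 name several and 8730 are not listed there. The brightest probe set stood for a gene. The genes named are the 12 highest and 12 lowest, up to 6 per direction of each class, and called members of the gene lists, with exceptions stated. The members and lists were chosen with earlier results of these data known. Promoter motifs and sequences were not used here. Alternatives changed the block, normalization, pseudocount, filter, arrays fitted, variance trend, mock and replicates.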

Additional observations from a re-analysis of the deposited data

How the results depend on the processing

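No called probe set of TIBA minus NPA changed direction under the alternatives tried, and the block had the largest effect on its counts. With no replicate block, the pairing being ignored, 553 were higher and 239 lower, TIBA against mock gave 556 and 377, NPA against mock gave 1 and 5, the probe sets called with both numbered 2, those of TIBA alone 645 and those of NPA alone 2. Of the 2004 calls, 792 stood with no replicate block and 1596 to 1973 under the other normalizations, pseudocounts, filters, array sets and variance prior. Leaving out 1 array gave 652 to 840 higher and 545 to 741 lower for TIBA minus NPA, 711 to 1130 and 643 to 1295 for TIBA against mock, 2 to 12 and 7 to 44 for NPA against mock, 4 to 42 called with both, 919 to 1257 of TIBA alone and 4 to 15 of NPA alone. The extremes of the probe sets called with both were without mock replicate 1 (4), without NPA replicate 1 (8) and without mock replicate 2 (42). With no filter NPA against mock gave 4 higher and NPA alone 5, with the stricter filter NPA alone 5, and with F1 arrays only 3 higher with NPA and 15 called with both. With the 16 other treated groups in place of mock, NPA gave 237 higher and 299 lower, 49 were called with both and NPA alone held 165. In that last setting the reference is more precise by design, which by itself allows more calls, and it includes treatments with many calls of their own. Beyond that, the cause of these shifts was not tested. Over 364 named or listed genes and 4976 values, 0 changed sign past the threshold, 145 lost the call and 52 gained it. Differences of the typical probe set carry an unadjusted 95% interval of 0.42 on either side. A call needs an adjusted p below 0.05, which is stricter, so differences of this size or smaller were mostly not detectable.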
